A study of Mus musculus with 48 samples.

Results

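The 9 core myelin protein genes described here are Mbp, Mobp, Cnp, Mag, Mog, Cldn11, Mal, Opalin and Ugt8a, out of 48526 genes counted in the cerebral cortex of the mouse. They were chosen by symbol, as genes whose products build the myelin sheath, and all 9 were found in the count table and passed the filter on low counts in every comparison. RNA came from 12 male wild-type C57BL/6JRj mice, for which the labels name no transgene and no drug treatment. There were 4 mice at 3 weeks (3w), 4 at 5 months (5m; the sample titles give 6 months, the treatment protocol gives 5) and 4 at 18 months (18m; 18 or 19 months in the protocol). Each mouse gave 4 libraries, so that 48 libraries fell into 12 groups of 4. RNA was taken from total homogenate (TH) of the cortex and from synaptosomes (SYN), the pinched-off nerve terminals collected at an interface of a sucrose gradient. Input is the RNA of the compartment itself, and SC is RNA from the pellet of a lysate spun through a sucrose cushion, which holds RNA associated with ribosomes. The sources used here do not say that input and SC came from the same lysate. Cycloheximide, which holds ribosomes on their mRNA, was in the lysis buffer and the cushion. The TH lysate was cleared by a short spin before it was loaded on the cushion, so what that spin removed is missing from SC_TH.

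Myelin is the stack of oligodendrocyte membrane wrapped around axons. Its proteins are made in 2 ways. Most integral membrane proteins are translated on the rough endoplasmic reticulum of the cell body and travel onward in vesicles. Mbp mRNA, in contrast, is packed into granules, carried along microtubules into the processes and translated at the sheath, and Mobp mRNA is known to be carried in the same manner. Myelin is a known companion of synaptosomes prepared on sucrose gradients. In the mouse cortex most myelin forms in the weeks after birth.

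The 9 products fall into 2 classes that are used below. Mbp, Mobp and Cnp are cytosolic or peripheral membrane proteins. Mbp, a basic protein, draws the inner leaflets of the membrane together and compacts the sheath. Mobp is a small basic protein of the same compacted zone. Cnp, a cyclic nucleotide phosphodiesterase held to membranes by a lipid anchor, keeps cytoplasmic channels in the sheath open. Mag, Mog, Cldn11, Mal, Opalin and Ugt8a are integral membrane proteins. Mag is an adhesion glycoprotein on the innermost, axon-facing wrap, and Mog is an immunoglobulin-like protein on the outermost. Cldn11 is the claudin of the tight junctions between wraps, Mal is a proteolipid that sorts raft membrane, Opalin is a glycoprotein of the oligodendrocyte surface in the central nervous system, and Ugt8a is the enzyme that makes galactosylceramide, the lipid typical of myelin.

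Reads counted per library ranged from 1780267 to 18590040, with the lowest median in input_SYN (3756951) and the highest in input_TH (10815833.5). Mice of the same fraction and age differed by 1.98 to 32.2 times the counting error over 72 pairs of libraries, so no library was a copy of another. The labels do not tell whether the 4 libraries of a mouse were prepared together, and libraries were sequenced in more than 1 run without a label for the run. Levels are given as CPM, the reads of a gene scaled to a common library total, with TMM factors taken over all 48 libraries. Differences are log2 fold changes from edgeR's quasi-likelihood test, each with its SE and a p adjusted over all genes tested. Markers of neurons, whose terminals synaptosomes are, summed to between 14340 and 18010 CPM in SC_SYN and between 8957 and 10900 CPM in SC_TH. At 5m 3 of 9 were higher in SC_SYN (Camk2a, Slc17a7 and Syt1) and 6 were lower, where 32.1% of 16630 genes were higher and 35.8% lower. Markers of astrocytes were also high in SYN, with 7 of 7 higher in SC_SYN than in SC_TH at 5m (median log2 difference 1.50) and 7 of 7 higher in input_SYN than in input_TH (1.76), as were 7 of 7 markers of microglia (1.44 and 1.52). Markers of endothelial cells (6 of 6), of erythrocytes (5 of 5) and nuclear RNAs (5 of 5) were lower in SYN in both. In input_SYN against input_TH at 5m, 32.6% of 17860 genes were higher and 40.1% lower.

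The genes lie on 8 chromosomes of GRCm38.  Mobp is at chr9:120149707-120181484 and Cnp at chr11:100574904-100591729, both on the plus strand. Mag is at chr7:30899176-30914873, Mog at chr17:37010743-37023398, Mal at chr2:127633226-127656695 and Opalin at chr19:41061710-41077113, all on the minus strand. Cldn11 (chr3:31149920-31164324, plus strand) and Ugt8a (chr3:125865271-125938619, minus strand) share a chromosome. Reads were counted per gene over exons and without regard to strand, so the count of Cnp may hold reads of Dnajc7, whose exons overlap it on the opposite strand, and that of Mobp may hold reads of Gm38642 on the same strand. The Mbp gene also gives rise to the Golli transcripts of neurons and immune cells, which a count per gene cannot separate from those of myelin.

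The stretch before the start of 4 of the 9 genes is shown, taken from RefSeq (GRCm38.p6), which held a window for 8 of the 9 (none for Mbp). Capitals mark CTGGNAC, the core of the motif of Myrf, the oligodendrocyte transcription factor, and ACAAAG, a motif of Sox factors such as Sox10. Both were searched on both strands of the 250 bases before each start, and the motifs do not overlap in the sequences printed. The strand is that of the gene, and each stretch ends at the base before the annotated gene start.
Cnp, chr11:100574689-100574903, plus strand: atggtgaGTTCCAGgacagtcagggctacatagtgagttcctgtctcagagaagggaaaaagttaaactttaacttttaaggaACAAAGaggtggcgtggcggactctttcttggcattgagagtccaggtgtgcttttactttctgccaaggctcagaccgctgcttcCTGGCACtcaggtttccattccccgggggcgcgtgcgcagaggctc
Mag, chr7:30914874-30915113, minus strand: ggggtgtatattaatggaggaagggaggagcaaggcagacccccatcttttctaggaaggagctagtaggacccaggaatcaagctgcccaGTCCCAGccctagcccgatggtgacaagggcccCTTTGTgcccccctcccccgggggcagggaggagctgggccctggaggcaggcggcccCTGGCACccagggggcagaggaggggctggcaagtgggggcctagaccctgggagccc
Mog, chr17:37023399-37023648, minus strand: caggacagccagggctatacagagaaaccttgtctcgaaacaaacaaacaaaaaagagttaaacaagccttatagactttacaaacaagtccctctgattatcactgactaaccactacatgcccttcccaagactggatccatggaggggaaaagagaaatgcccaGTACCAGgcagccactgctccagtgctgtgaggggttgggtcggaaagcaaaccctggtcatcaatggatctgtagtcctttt
Mobp, chr9:120149492-120149706, plus strand: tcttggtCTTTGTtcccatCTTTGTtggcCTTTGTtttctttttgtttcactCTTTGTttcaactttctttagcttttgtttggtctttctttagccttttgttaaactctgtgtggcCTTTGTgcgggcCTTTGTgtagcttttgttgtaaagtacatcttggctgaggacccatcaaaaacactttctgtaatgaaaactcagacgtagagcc
The Myrf motif was found in 3 of the 8 members (Cnp, Mag and Mog), against 16.1% of all 32851 windows of this length. The Sox motif was found in 4 of 8 (Cnp, Mag, Opalin and Mobp, where it occurred 6 times), against 16.5% of all windows. Cldn11, Mal and Ugt8a held neither motif, while each of the 4 stretches printed holds a match. A member was counted if any of its windows matched (Mag has 3 windows, of which 2 hold both motifs), while the percentages are over windows. A match of letters is a description and not a bound site.

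Levels of the members differed widely. Summed over the 9 genes they took 0.538% ± 0.058 (SD, n = 4) of all counts in input_TH at 3w, 0.233% ± 0.0091 at 5m and 0.267% ± 0.013 at 18m. In SC_SYN they took 0.541% at 3w, 0.229% at 5m and 0.207% at 18m. After TMM scaling the sums at 3w were 5779 to 7255 CPM in SC_SYN and 4239 to 5259 CPM in input_TH, without overlap. Mbp alone made up 56.0% of the members' counts in input_TH at 3w, but 36.0% in SC_TH and 37.4% in input_SYN of the same mice. Per kilobase of exon (CPM per kb), Mbp led in input_TH at 5m with 133, followed by Mobp (50.6) and Cnp (46.0), whose ranges overlapped. Below them came Cldn11 (41.4), Mal (32.4), Mag (21.2), Mog (16.6), Ugt8a (7.14) and Opalin (2.07), with no overlap between neighbours. The order differed in SC_SYN at 5m, where Cldn11 (95.1 CPM per kb), Mag (90.8), Cnp (72.4) and Mal (66.7) followed Mbp (164) with overlapping neighbours, and Mobp (39.4) overlapped Mog (27.4). In SC_TH at 3w Mbp did not lead, since Cnp (124), Mbp (118), Mal (112) and Cldn11 (109) overlapped in turn. Exon length was the union over all transcripts of a gene, which is long for Mbp and lowers its value per kb.

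**Figure D1:**
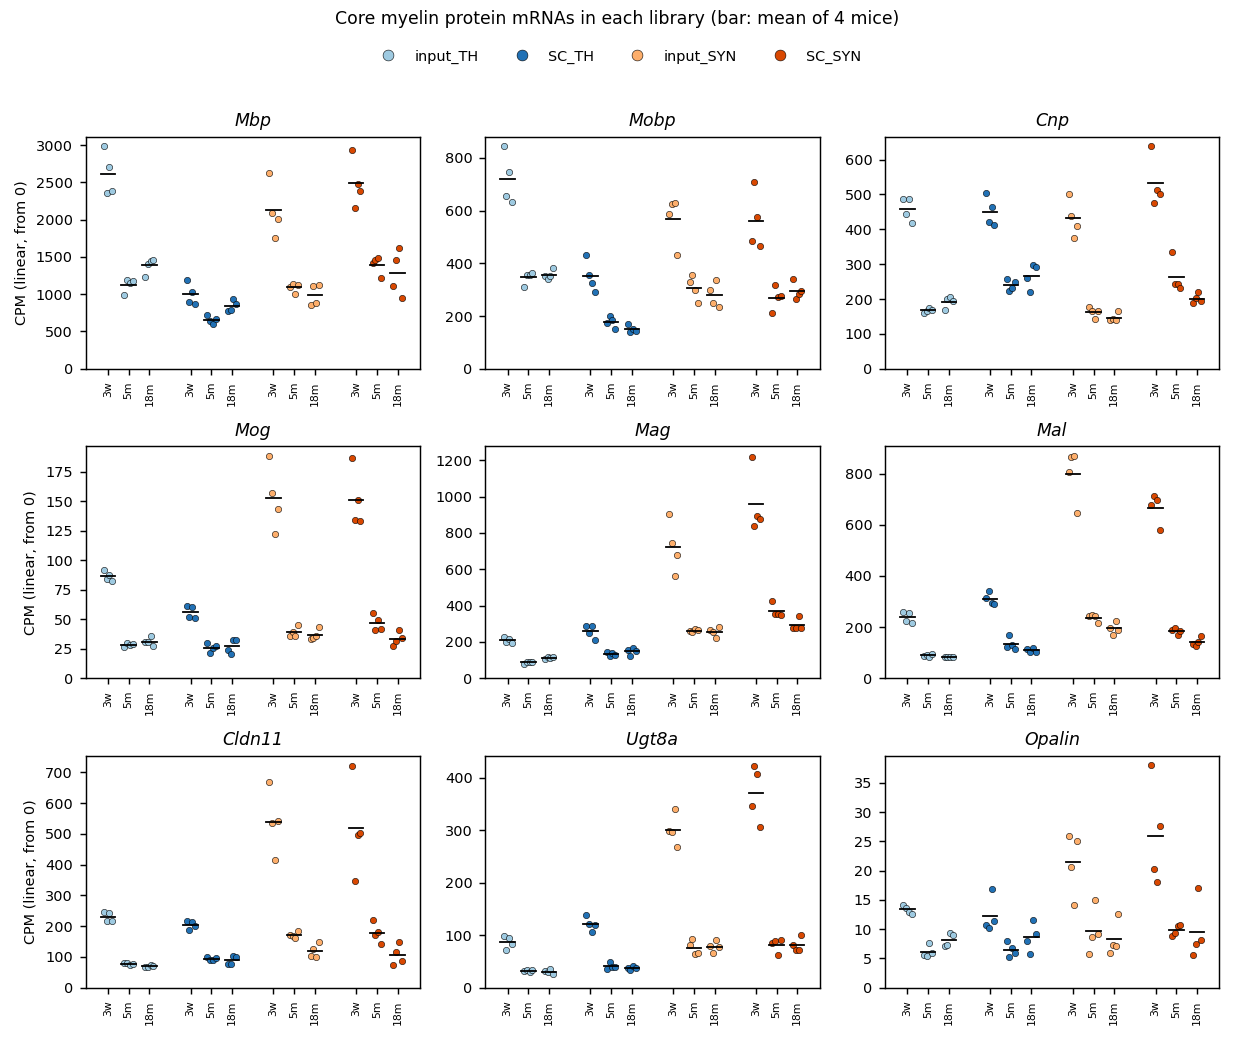
Level of each of the 9 core myelin protein mRNAs in all 48 libraries, in CPM on a linear axis from 0, by fraction (colour) and age (3w, 5m, 18m). Each point is 1 mouse and the bar is the mean of 4; in nearly every panel the 3w points stand above those of 5m and 18m, and Mag and Ugt8a stand higher in SYN than in TH at each age.

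The first comparison asked how the transcripts changed between 3w and 5m, that is, between the young and the adult cortex. All 9 fell in all 4 fractions. The fall was 1.53- to 4.63-fold, it was steepest for Ugt8a in SC_SYN and shallowest for Mbp in SC_TH, and it was present both in ribosome-associated RNA and in input. Lower transcripts made up 4.02% of the 14240 genes tested in SC_SYN, 8.46% of the 16427 in SC_TH, 1.94% of the 12975 in input_SYN and 7.05% of the 18078 in input_TH, against 9 of 9 members in each. Scaling by library size moved the genes called from 573 higher and 573 lower to 458 and 711 in SC_SYN and from 861 and 1275 to 1411 and 972 in input_TH, and the members fell by both scalings. The members had a median log2 fold change of -1.42 (SC_SYN), -1.01 (SC_TH), -1.47 (input_SYN) and -1.41 (input_TH), while that over all genes was between -0.01 and 0.01. All 4 mice of 5m lay below all 4 of 3w for 9 members in SC_SYN, SC_TH and input_TH and for 8 in input_SYN, where Opalin overlapped. Such a separation downward was seen in 7.93% of all genes of SC_SYN, 8.19% of SC_TH, 6.13% of input_SYN and 9.18% of input_TH. In bulk RNA, fewer cells of a type and less RNA per cell cannot be told apart, and CPM are shares of a library, so a lower level can also reflect more of other RNA.

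Mbp (chr18:82475146-82585637, plus strand), the compaction protein, was at 2990, 2352, 2711 and 2385 CPM in input_TH at 3w and at 983, 1191, 1156 and 1172 CPM at 5m. In SC_TH it was at 1195, 896, 1029 and 870.4 CPM at 3w and at 724, 647, 604 and 668 CPM at 5m. The ages were separate in both, but the gap was wider in input. Mbp fell by 1.22 on the log2 scale in input_TH (SE 0.077, adjusted p = 3.02e-08) and by 0.62 in SC_TH (SE 0.092, adjusted p = 0.00036). In SC_SYN its libraries held 2939, 2155, 2483 and 2387 CPM at 3w and 1412, 1457, 1482 and 1211 CPM at 5m. In input_SYN they held 2632, 2093, 1757 and 2013 CPM at 3w and 1097, 1139, 1003 and 1124 CPM at 5m. No 5m library reached the lowest of 3w in either. The fall was 0.87 in SC_SYN (SE 0.15, adjusted p = 0.00425) and 0.97 in input_SYN (SE 0.12, adjusted p = 0.000106).

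Mobp, the other carried mRNA, was at 485, 710.2, 576 and 465 CPM in SC_SYN at 3w and at 212, 318, 273 and 276 CPM at 5m. The mice of 3w were spread widely, yet the lowest stood clear of the highest at 5m. Mobp fell by 1.08 (SE 0.16, adjusted p = 0.00117) in SC_SYN and by 0.90 to 1.06 in the other fractions, the narrowest span among the members. Cnp, the phosphodiesterase of uncompacted myelin, was at 639.8, 475, 514 and 500.4 CPM in SC_SYN at 3w and at 336, 244, 243 and 230.4 CPM at 5m. Mouse 191 stood above the other 3 at 5m, but below every mouse of 3w. Cnp fell by 1.05 in SC_SYN (SE 0.13, adjusted p = 0.00037) and by 1.46 in input_TH (SE 0.065, adjusted p = 2.39e-10).

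Of the membrane proteins, Ugt8a, the galactosylceramide enzyme, was at 347, 423, 408 and 307 CPM in SC_SYN at 3w and at 85.4, 88.1, 62.7 and 91.6 CPM at 5m. The 2 ages were far apart, with the highest 5m mouse below the lowest of 3w by a wide margin. Ugt8a fell by 2.21 (SE 0.16, adjusted p = 2.02e-06) there and by 1.42 in input_TH (SE 0.094, adjusted p = 5.04e-08). Mal, the raft proteolipid, was at 677, 712, 698 and 578 CPM in SC_SYN at 3w and at 190.1, 198, 169.6 and 184 CPM at 5m. Its 4 mice of each age lay close together. Mal fell by 1.88 in SC_SYN (SE 0.12, adjusted p = 6e-07) and by 1.24 in SC_TH (SE 0.11, adjusted p = 2.12e-06).

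Mog, on the outer surface, was at 187, 134, 151 and 133 CPM in SC_SYN at 3w and at 55.1, 40.9, 49.1 and 41.3 CPM at 5m. Mag, on the inner surface, was at 1220, 837, 893 and 877 CPM at 3w and at 428, 351, 351 and 349 CPM at 5m. Each gene had 1 mouse above the other 3 at 3w, which was mouse 187 in both, and no overlap between ages. Mog fell by 1.73 (SE 0.15, adjusted p = 1.23e-05) and Mag by 1.40 (SE 0.14, adjusted p = 2.18e-05). Cldn11, the tight junction protein, was at 721, 348, 498 and 504 CPM in SC_SYN at 3w and at 219, 172, 181 and 140.2 CPM at 5m. Mouse 187 was again the highest and mouse 188 the lowest of 3w, and all 4 stood above 5m. Cldn11 fell by 1.57 (SE 0.23, adjusted p = 0.00107).

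Opalin was the scarcest member, with 18 to 217 reads in a library, and its values carry the most counting error. In input_SYN it was at 25.9, 20.6, 14.2 and 25.1 CPM at 3w and at 5.78, 8.58, 14.9 and 9.11 CPM at 5m. Mouse 193 at 5m stood above mouse 189 at 3w, so the groups overlapped. Opalin fell by 1.21 (SE 0.29, adjusted p = 0.0284) in input_SYN, a call that was lost when any one of mice 187, 188, 190, 191, 192 and 194 was left out (adjusted p between 0.0689 and 0.104). In input_TH, with 14.2, 13.7, 13.0 and 12.6 CPM at 3w against 5.55, 5.38, 7.58 and 5.85 CPM at 5m, the ages were separate and it fell by 1.13 (SE 0.12, adjusted p = 1.17e-05).

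**Figure D2:**
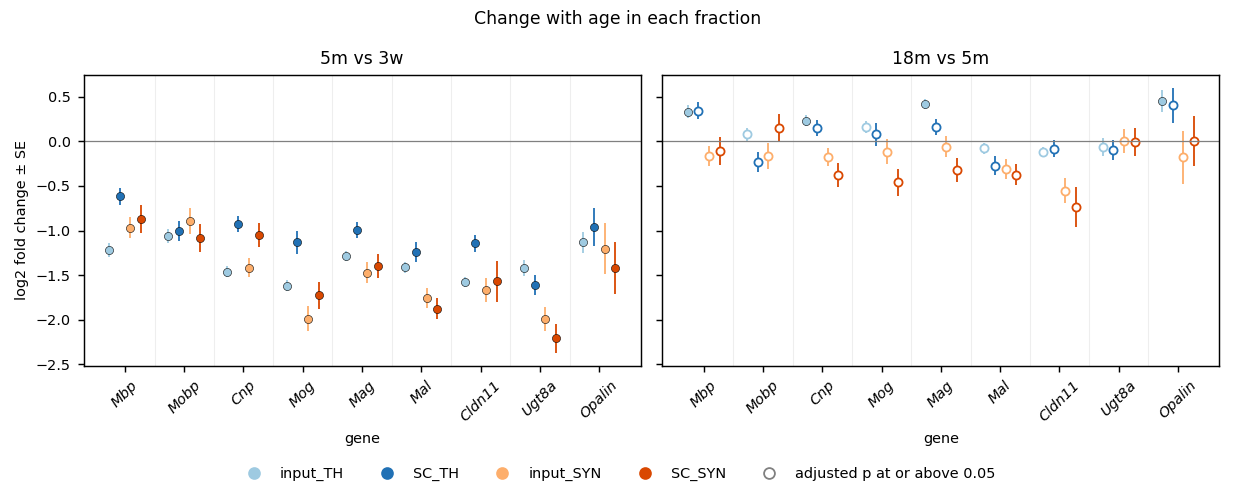
Log2 fold change with age of the 9 members in each fraction (colour), with bars of 1 SE from edgeR; a filled point has an adjusted p under 0.05 and an open point does not. All points of 5m against 3w are filled and lie between -2.21 and -0.62, while for 18m against 5m the filled points are Mbp, Cnp, Mag and Opalin in input_TH, all above 0.

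Other myelin and oligodendrocyte genes moved less evenly. Of 24 such genes, 11 fell and 2 rose between 3w and 5m in SC_SYN, where all were tested. In SC_TH 11 fell and 3 rose, in input_SYN 12 of the 23 tested fell and 1 rose, and in input_TH 18 fell and 1 rose. Tspan2, a tetraspanin of oligodendrocytes, fell by 2.12 (SC_SYN), 1.60 (SC_TH), 1.99 (input_SYN) and 1.56 (input_TH). Gjc3, a gap junction gene, fell in SC_SYN (1.32) and SC_TH (0.84), and Gamt, an enzyme of creatine synthesis, fell in input_TH (1.28). Plekhb1, which codes for a membrane-binding protein, rose in all 4 (0.67, 0.63, 0.49 and 0.24). Cntn2, an adhesion protein, rose in SC_SYN (0.37) and SC_TH (0.43), and Car2, a carbonic anhydrase, rose in SC_TH (0.50).

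Of 10 genes of oligodendrocyte precursors and newly formed oligodendrocytes, 6 fell between 3w and 5m in both SYN fractions and 7 in both TH fractions, and none rose. Enpp6 (-2.37), Bcas1 (-1.73) and Gpr17 (-1.54) fell furthest in SC_SYN. The summed level of the 10 lay between 1227 and 1409 CPM in SC_SYN at 3w and between 673 and 728 CPM at 5m, and it moved with the members. Markers of microglia moved the other way, with 5 of 7 higher at 5m in SC_SYN, 3 in SC_TH and 4 in input_SYN, while 1 of 7 was lower in input_TH. Over all genes 573 of 14240 were higher in SC_SYN, 1558 of 16427 in SC_TH and 166 of 12975 in input_SYN. The sum of the microglia markers in SC_SYN was between 547 and 623 CPM at 3w and between 933 and 1167 CPM at 5m. Markers of erythrocytes were lower at 5m for 4 of 5 in SC_TH and 5 of 5 in input_TH. The part of these cells in the fall of the members was not tested.

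From 5m to 18m, the comparison of the adult with the old cortex, the members went both ways. Their log2 fold changes lay between -0.73 (Cldn11 in SC_SYN) and 0.46 (Opalin in input_TH). In input_TH 4 of 9 were higher at 18m, where 8.18% of 18078 genes were higher (1479 higher and 1329 lower, by library size 996 and 2063, with 4 members called by both). Mbp was at 1233, 1408, 1444 and 1463 CPM at 18m, and all 4 mice stood above the highest of 5m. It rose by 0.34 (SE 0.076, adjusted p = 0.00955). Mag was at 108, 114, 113 and 117 CPM at 18m against 80.6, 86.4, 87.0 and 91.0 CPM at 5m, again without overlap, and rose by 0.42 (SE 0.055, adjusted p = 0.000759). Cnp rose by 0.23 (SE 0.064, adjusted p = 0.0226) and Opalin by 0.46 (SE 0.13, adjusted p = 0.0233), each with overlapping ages. The call of Cnp was lost without any one of mice 192, 194, 196, 197 and 198 (adjusted p between 0.0511 and 0.0684), and that of Opalin without any one of mice 192, 194, 197 and 198 (between 0.0617 and 0.0759). Mog (0.16), Mobp (0.08), Mal (-0.07), Cldn11 (-0.12) and Ugt8a (-0.06) did not pass. With all 48 libraries in a single fit the calls of Mbp (adjusted p = 0.164), Cnp (0.24) and Opalin (0.358) were lost and that of Mag was kept. With only the groups compared that of Opalin was lost (0.0566).

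In the other fractions edgeR called no member between 5m and 18m. In SC_SYN 5 of 9 had an unadjusted p under 0.05, as did 2474 of all 14240 genes. DESeq2 called 1 member (Mal) and 322 of 14239 genes, and edgeR called 0.014% of 14240 genes. With so few genes called, a missing call by edgeR in SC_SYN does not show a lack of change. Mag was at 276, 279, 341 and 275 CPM at 18m, Cnp at 189.5, 202, 219 and 194 CPM, Mal at 135, 127, 141 and 165 CPM and Mog at 27.2, 31.7, 40.5 and 34.4 CPM, each below all 4 mice of 5m. Mog did so narrowly, since its lowest mouse of 5m was at 40.9 CPM. The share of all genes separated between 5m and 18m is not given here for any fraction. Cldn11 was at 74.1, 115, 148 and 85.5 CPM at 18m, and its highest mouse overlapped 5m. The estimates were -0.73 for Cldn11 (SE 0.23, adjusted p = 0.187), -0.46 for Mog, -0.37 for Cnp and Mal and -0.32 for Mag. In the fit over all 48 libraries these 5 passed the threshold, with adjusted p between 0.00231 and 0.0346. That fit called 1457 of 18112 genes. The levels of Mbp (1108, 1455, 1615 and 951 CPM), Mobp (342, 267, 282 and 296 CPM) and Ugt8a (81.1, 71.0, 72.1 and 100.3 CPM) at 18m lay across those of 5m.

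In SC_TH 2 of 9 had an unadjusted p under 0.05 between 5m and 18m, as did 2878 of all 16427 genes. DESeq2 called 1 member, Mbp, and 533 of 16427 genes, and edgeR called 2.17% of 16427 genes. Mbp was at 769, 788, 941 and 862 CPM at 18m, all above 5m, with a difference of 0.35 (SE 0.092, adjusted p = 0.0561). Without mouse 191 it passed (0.38, adjusted p = 0.0349). In input_SYN 2 of 9 had an unadjusted p under 0.05, as did 1214 of all 12975 genes. DESeq2 called 1 member, Cldn11, and 64 of 12975 genes, and edgeR called 0.139% of 12975 genes. Cldn11 was at 103, 125, 98.7 and 147 CPM at 18m, below the 172, 169, 160.4 and 183 CPM of 5m, with a difference of -0.55 (SE 0.14, adjusted p = 0.183). Of the 24 other myelin genes, 11 rose and 1 fell in input_TH, 1 rose in SC_TH (Olig2, 0.49) and none passed in either SYN fraction. Among the rises in input_TH were those of Gjb1 (0.68), which codes for a connexin, and Olig1 (0.64), a transcription factor of the lineage, and the fall was that of Tspan2 (-0.37).

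The next comparison set synaptosomes against total homogenate, which asks which transcripts accumulate in the SYN fraction. In ribosome-associated RNA, after TMM scaling, all 9 members were higher in SC_SYN than in SC_TH at 3w, 8 at 5m and 6 at 18m, and Cnp was lower at 18m. Of 16630 genes, 31.1% were higher and 32.4% lower at 3w, 32.1% and 35.8% at 5m, and 29.9% and 32.2% at 18m. The median difference of the members was 1.37 at 3w, 0.90 at 5m and 0.42 at 18m, and that of all genes was -0.04, -0.09 and -0.07. The 5 nuclear RNAs summed to 10270 to 13440 CPM in SC_TH at 3w, 7445 to 10600 CPM at 5m and 5340 to 6288 CPM at 18m, and to 853 to 1417, 1063 to 2153 and 2204 to 3421 CPM in SC_SYN. Their levels in the pellets came closer with age as well, and their part in the members' values was not tested. These directions are relative to the other genes of each library. The share of all genes whose libraries do not overlap between SYN and TH is not given here. When libraries were scaled by their size alone, the median of all genes shifted by -0.53 to -0.65 in the comparisons of SYN with TH, the genes called went from 5173 higher and 5385 lower to 3078 and 9063 at 3w, from 5334 and 5948 to 2991 and 9802 at 5m, and from 4974 and 5347 to 2456 and 9533 at 18m. Of the members, 6 were then higher and 1 lower at 3w, and 3 higher and 1 lower both at 5m and at 18m. Cnp at 3w (-0.26) and 5m (-0.40), Mal at 5m (-0.056) and Mog (-0.18), Mal (-0.11), Opalin (-0.28) and Cldn11 (-0.21) at 18m lay below 0 by that scaling, Cnp past the threshold (adjusted p = 0.0456 and 0.00296).

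Mag had the largest difference at 3w, 1.93 (SE 0.12, adjusted p = 1.08e-12). In SC_TH its libraries held 286, 251, 287 and 212 CPM at 3w, 142, 124, 137 and 126 CPM at 5m and 152, 124, 166 and 148 CPM at 18m. Every SC_SYN library of Mag, as given above, was higher than every SC_TH library of its age. The difference was 1.54 at 5m (SE 0.12, adjusted p = 5e-11) and 1.05 at 18m (SE 0.12, adjusted p = 5.29e-08). Mbp was also higher in every SC_SYN library, by 1.37 at 3w (SE 0.13, adjusted p = 2.35e-09), 1.13 at 5m (SE 0.13, adjusted p = 5.06e-08) and 0.67 at 18m (SE 0.13, adjusted p = 0.000111; 0.14 by library size, adjusted p = 0.349, so that this call was lost). Within mice, log2 of SC_SYN over SC_TH for Mbp lay between 1.27 and 1.45 at 3w, between 0.86 and 1.30 at 5m and between 0.14 and 0.88 at 18m.

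Ugt8a was at 139, 120.4, 106 and 118 CPM in SC_TH at 3w, at 34.5, 48.5, 39.2 and 38.7 CPM at 5m and at 38.2, 33.7, 40.2 and 37.8 CPM at 18m. It was higher in SC_SYN without overlap at each age, by 1.66 (SE 0.14, adjusted p = 1.82e-10), 1.09 (SE 0.14, adjusted p = 2.72e-07) and 1.17 (SE 0.14, adjusted p = 1.41e-07). Mobp was at 432, 357, 326 and 289.8 CPM in SC_TH at 3w, at 173, 199.6, 186 and 152 CPM at 5m and at 170, 141, 151 and 142 CPM at 18m. It too was higher in SC_SYN without overlap, by 0.72 (SE 0.14, adjusted p = 0.000108), 0.66 (SE 0.14, adjusted p = 0.000241) and 1.04 (SE 0.14, adjusted p = 1.13e-06). By library size Mobp gave 0.17 at 3w (adjusted p = 0.303) and 0.075 at 5m (0.644), and both calls were lost.

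Mog, Mal, Cldn11 and Opalin had differences of 1.48, 1.15, 1.39 and 1.10 at 3w, of 0.90, 0.53, 0.98 and 0.66 at 5m and of 0.35, 0.42, 0.32 and 0.25 at 18m. At 3w and 5m the fractions did not overlap for any of these 4. Mal at 5m was separate only narrowly, with its lowest SC_SYN library at 169.6 CPM and its highest SC_TH library at 168.9 CPM. By library size Opalin lost its calls at 3w (0.56, adjusted p = 0.069) and 5m (0.070, 0.826), and at 5m Mog (0.31, 0.0592) and Cldn11 (0.39, 0.0542) lost theirs. Opalin at 5m was lost without any one of mice 192, 193 and 194 (adjusted p between 0.102 and 0.14). At 18m Cldn11 (adjusted p = 0.129) and Opalin (0.42) did not pass, and Mog, at 24.2, 20.3, 32.1 and 32.5 CPM in SC_TH, passed narrowly with overlap (adjusted p = 0.0418). Mog was lost without mouse 195, 196 or 197 (adjusted p between 0.061 and 0.151), by DESeq2 (0.0531) and without the filter (0.107), and Mal at 18m (adjusted p = 0.00223) without mouse 198 (0.0526).

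Cnp stood apart in these fractions. In SC_TH it was at 503, 421, 464 and 412 CPM at 3w, at 258, 223, 232 and 249 CPM at 5m and at 259, 219.5, 299 and 292 CPM at 18m. Its SC_SYN libraries overlapped these at 3w and 5m and lay below all of them at 18m. That separation was narrow, with the highest SC_SYN library at 218.9 CPM and the lowest SC_TH library at 219.5 CPM. The difference was 0.29 at 3w (SE 0.12, adjusted p = 0.0347), a call lost without any one of the 4 mice (adjusted p between 0.056 and 0.15), by DESeq2 (0.0761) or without the filter (0.111), 0.19 at 5m (adjusted p = 0.154) and -0.35 at 18m (SE 0.12, adjusted p = 0.0122; 0.061 without mouse 198).

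**Figure D3:**
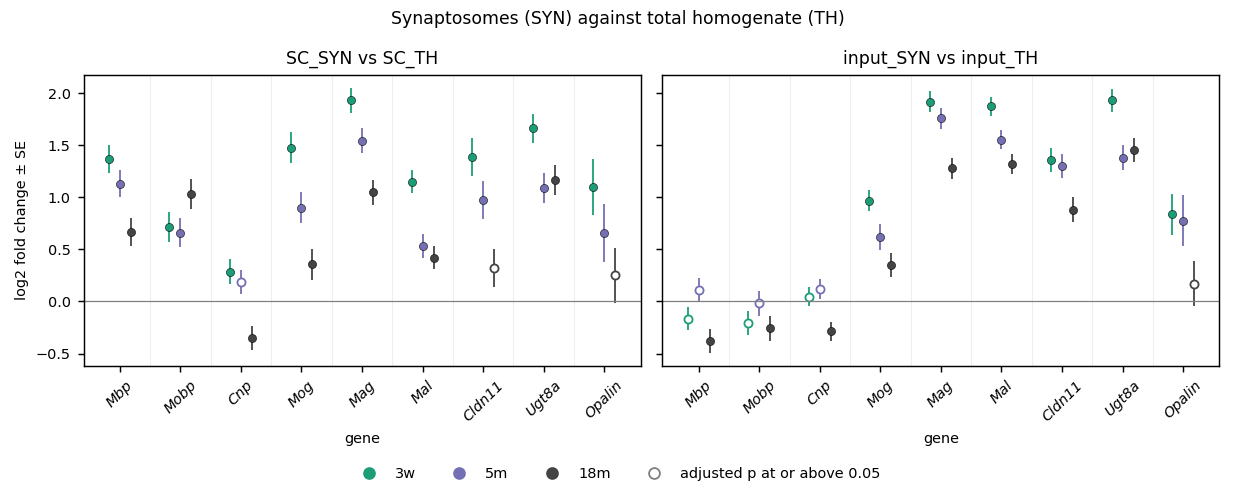
Log2 fold change of synaptosomes (SYN) over total homogenate (TH) for the 9 members at each age (colour), in ribosome-associated RNA (left) and input RNA (right), with bars of 1 SE; filled points have an adjusted p under 0.05. Values are after TMM scaling. On the left all points but that of Cnp at 18m lie above 0 (7 more fall below 0 by library size), while on the right Mbp, Mobp and Cnp lie between -0.38 and 0.12 and Mag, Mal, Cldn11 and Ugt8a between 0.88 and 1.93. Also on the right, Mog lies between 0.35 and 0.97, and Opalin lies above 0 with an open point at 18m.

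In input RNA the same comparison split the members by class. Mag, Mog, Cldn11, Mal, Opalin and Ugt8a stood higher in input_SYN than in input_TH at 3w and 5m, and 5 of these 6 at 18m, while Mbp, Mobp and Cnp did not pass at 3w and 5m and were lower at 18m. Of 17860 genes, 31.7% were higher and 39.3% lower at 3w, 32.6% and 40.1% at 5m, and 32.9% and 39.4% at 18m. By library size the genes called went from 5655 higher and 7024 lower to 3518 and 10775 at 3w, from 5826 and 7164 to 3468 and 11103 at 5m, and from 5878 and 7031 to 3460 and 11085 at 18m, and of the members 5, 4 and 4 were higher and 3 lower at each age. By TMM the members' median was 0.97, 0.78 and 0.35 at the 3 ages, against -0.18, -0.18 and -0.12 for all genes. Of the 9 markers of neurons, 4 were higher and 3 lower at 5m in input_SYN.

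Mal was at 260, 224, 254 and 216 CPM in input_TH at 3w and at 808, 867, 868 and 648 CPM in input_SYN. At 5m it was at 87.1, 91.9, 84.4 and 95.9 CPM in input_TH and at 243, 248, 244 and 214 CPM in input_SYN. The fractions were far apart at both ages. The difference was 1.87 at 3w (SE 0.093, adjusted p = 2.85e-16), 1.55 at 5m (SE 0.095, adjusted p = 2.31e-14) and 1.32 at 18m (SE 0.094, adjusted p = 6.94e-13). Ugt8a was at 97.5, 71.1, 94.4 and 82.2 CPM in input_TH at 3w and at 298, 297, 340.1 and 268 CPM in input_SYN, without overlap. It was higher by 1.93 at 3w (SE 0.11, adjusted p = 5.79e-15), 1.38 at 5m and 1.45 at 18m. Mag was at 227, 202, 217 and 194 CPM in input_TH at 3w and at 904, 742, 562 and 677 CPM in input_SYN. It was higher by 1.92 (SE 0.10, adjusted p = 1.1e-15), 1.76 and 1.28 at the 3 ages, without overlap.

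Cldn11 was at 247, 218, 242 and 217 CPM in input_TH at 3w and at 670, 534, 413 and 541 CPM in input_SYN, and was higher by 1.36 (SE 0.11, adjusted p = 2.57e-11), 1.30 and 0.88 at the 3 ages. Mog, at 92.0, 84.3, 87.6 and 82.1 CPM in input_TH and 188, 157, 123 and 144 CPM in input_SYN at 3w, was higher by 0.97 (SE 0.11, adjusted p = 4.01e-09), 0.62 and 0.35. Neither overlapped between fractions at 3w, and Mog did at 18m, where its call was lost without mouse 198 (0.19, adjusted p = 0.186). Opalin was higher by 0.84 (adjusted p = 0.000498), 0.78 (0.00645) and 0.17 (0.482), with overlap at each age. By library size Mog at 5m (-0.04) and 18m (-0.22) and Opalin at 18m (-0.41) lay below 0, while Mag, Mal, Cldn11 and Ugt8a stayed above 0 at each age.

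Mbp, in contrast, after TMM scaling had input_SYN libraries that lay among or below those of input_TH. The difference was -0.17 at 3w (SE 0.11, adjusted p = 0.183) and 0.11 at 5m (SE 0.11, adjusted p = 0.373). The mean levels of Mbp at 5m were 1091 CPM in input_SYN and 1126 CPM in input_TH. At 18m Mbp was at 852, 1105, 885 and 1124 CPM in input_SYN, below every input_TH library of that age, with a difference of -0.38 (SE 0.11, adjusted p = 0.00331). Mobp gave -0.20 (adjusted p = 0.117), -0.02 (0.895) and -0.26 (0.0487), the last of which was lost without mouse 195, 196 or 198 (adjusted p between 0.0668 and 0.307). At 3w DESeq2 placed both below the threshold, Mbp at -0.24 (adjusted p = 0.0439) and Mobp at -0.28 (0.0454). Cnp gave 0.05 (adjusted p = 0.667), 0.12 (0.259) and -0.29 (0.00706; 0.0569 without mouse 197). By library size Mbp (-0.54) and Cnp (-0.54) at 5m and Cnp at 3w (-0.53) turned below 0 and passed the threshold there (adjusted p at most 1.91e-05).

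The split was also measured within each mouse, as the mean log2 ratio over the 6 integral membrane members minus that over the 3 others, a quantity in which the scaling of libraries cancels. For input_SYN over input_TH this was 1.32 ± 0.24 (SD, n = 12 mice), positive in 12 of 12 mice and between 0.92 and 1.65. By age it was 1.58 at 3w, 1.17 at 5m and 1.21 at 18m. For SC_SYN over SC_TH it was smaller, at 0.36 ± 0.27, positive in 11 of 12 mice and between -0.05 and 1.01. It was 0.65 at 3w, 0.30 at 5m and 0.13 at 18m. The classes were drawn with earlier results of these data known, so these values are a description.

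**Figure D4:**
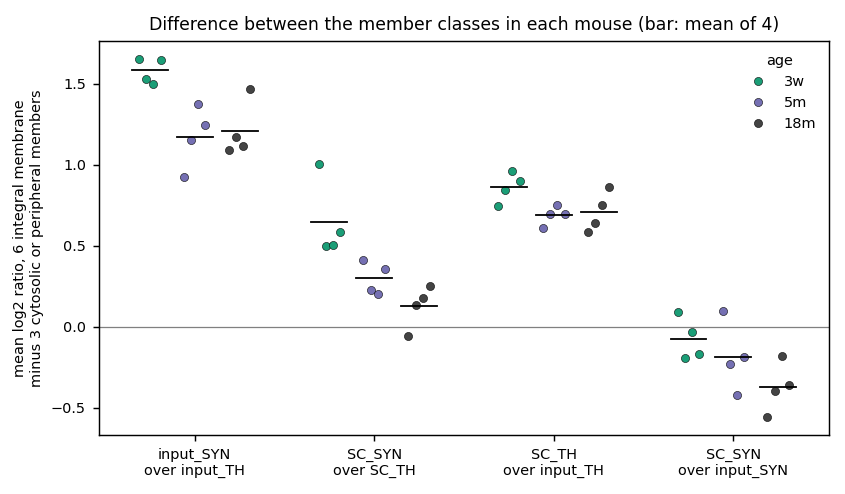
Mean log2 ratio of the 6 integral membrane members minus that of the 3 cytosolic or peripheral members in each of 12 mice, for 4 ratios between fractions and coloured by age; the bar is the mean of 4 mice. The values of input_SYN over input_TH lie between 0.92 and 1.65 and those of SC_TH over input_TH between 0.58 and 0.96, while those of SC_SYN over input_SYN lie around or below 0.

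Setting the cushion pellet against its input asks which transcripts were enriched in the pellet. The pellet also held the 5 nuclear RNAs. At 3w they summed to 10270 to 13440 CPM in SC_TH and 18700 to 20440 CPM in input_TH. At 18m these sums were 5340 to 6288 and 16890 to 18440 CPM. In SC_SYN and input_SYN they were 853 to 1417 and 1595 to 3217 CPM at 3w, and 2204 to 3421 and 2249 to 4131 CPM at 18m. The part of RNA not bound to ribosomes in the members' values was not tested. In total homogenate the members went both ways. At 3w 3 were higher in SC_TH than in input_TH (Mag, Mal and Ugt8a) and 3 were lower (Mbp, Mobp and Mog), and at 5m and at 18m 5 were higher (Mag, Mal, Ugt8a, Cnp and Cldn11) and 2 lower (Mbp and Mobp). Of 18416 genes, 26.1% were higher and 26.6% lower at 3w, 29.9% and 32.2% at 5m, and 31.3% and 32.7% at 18m.

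Mbp and Mobp, the mRNAs known to be carried to the sheath, were the 2 that were lower at each age. Mbp was lower in SC_TH by 1.26 at 3w (SE 0.091, adjusted p = 8.26e-12), by 0.68 at 5m (SE 0.090, adjusted p = 2.96e-07) and by 0.67 at 18m (SE 0.090, adjusted p = 3.16e-07). Within mice, with the TMM factors over all 48 libraries, log2 of SC_TH over input_TH for Mbp lay between -1.45 and -1.32 at 3w. At 5m it lay between -0.94 and -0.44. Mobp was at 845, 655, 746 and 633 CPM in input_TH at 3w, at 311, 356, 356 and 363 CPM at 5m and at 352, 342, 353 and 383 CPM at 18m. Each of these exceeded every SC_TH library of Mobp of the same age. Mobp was lower in SC_TH by 0.91 (SE 0.10, adjusted p = 2.56e-08), 0.88 (SE 0.10, adjusted p = 3.87e-08) and 1.19 (SE 0.10, adjusted p = 1.33e-10). The cleared lysate that went onto the TH cushion lacked what the short spin removed, and the part of this step in the values was not tested.

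Mag and Mal were higher in SC_TH at each age, Mag by 0.43, 0.70 and 0.44 (adjusted p at most 5.54e-05) and Mal by 0.50, 0.65 and 0.46 (at most 0.000124). Ugt8a was higher by 0.61, 0.39 and 0.36 (adjusted p at most 0.00597). Cnp was at 487, 443, 488 and 418 CPM in input_TH at 3w, which overlapped SC_TH, and at 160.4, 166, 174 and 169 CPM at 5m, all below SC_TH. Its difference was 0.10 at 3w (adjusted p = 0.331), where the mean log2 ratio within mice was -0.03. Cnp was higher in SC_TH by 0.61 at 5m (adjusted p = 3.83e-07) and by 0.53 at 18m (adjusted p = 2.58e-06). Cldn11 gave -0.05 (adjusted p = 0.572), 0.36 (0.000298) and 0.40 (7.52e-05), and Mog -0.50 (0.000234), -0.04 (0.783) and -0.12 (0.348). Opalin passed at no age, with estimates between 0.03 and 0.19. Over the 2 classes, the within-mouse difference of SC_TH over input_TH was 0.75 ± 0.12 (SD, n = 12 mice), positive in all 12 mice. Single members did not all follow their class, since Cnp was higher in SC_TH at 5m and 18m and Mog was lower at 3w.

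**Figure D5:**
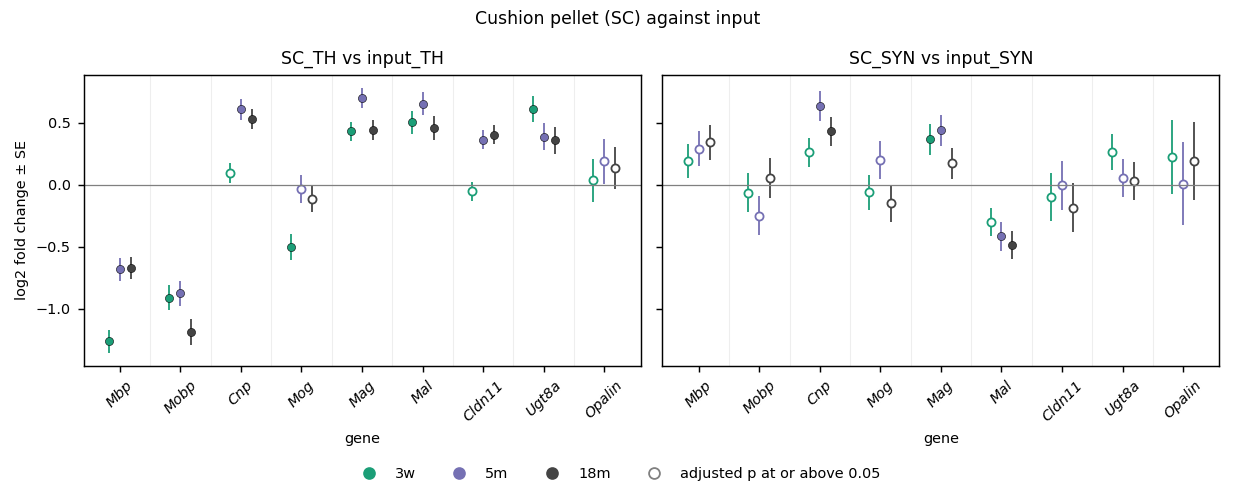
Log2 fold change of the cushion pellet (SC) over input for the 9 members at each age (colour), in total homogenate (left) and synaptosomes (right), with bars of 1 SE; filled points have an adjusted p under 0.05. In total homogenate Mbp and Mobp lie between -1.26 and -0.67 at every age, and in synaptosomes the filled points are Mag at 3w and 5m and Cnp and Mal at 5m and 18m.

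In synaptosomes the pellet and the input differed less. Between SC_SYN and input_SYN 1 member passed at 3w, 3 at 5m and 2 at 18m, where 18.5%, 20.0% and 12.6% of 14301 genes passed (at 3w 1293 higher and 1358 lower, by library size 1605 and 1095). Mag was higher in SC_SYN at 3w (0.37, SE 0.12, adjusted p = 0.0413), a call lost without mouse 188, 189 or 190, and at 5m (0.44, SE 0.13, adjusted p = 0.0154), a call lost without mouse 191 or 192. Cnp was higher at 5m (0.63, SE 0.12, adjusted p = 0.00053), with 178, 164, 143 and 166 CPM in input_SYN below every SC_SYN library, and at 18m (0.43, SE 0.12, adjusted p = 0.0178), where the call was lost without mouse 195, 196 or 197. Mal was lower in SC_SYN at 5m (-0.42, SE 0.12, adjusted p = 0.0118; lost without mouse 191 or 193 and without the filter) and at 18m (-0.49, SE 0.12, adjusted p = 0.00629; lost without mouse 197). At 3w its difference was -0.30 (adjusted p = 0.0678), and with the mouse as a block -0.29 (adjusted p = 0.046).

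Mbp, which was 1.59- to 2.40-fold lower in the pellet of total homogenate, gave 0.19 (adjusted p = 0.37), 0.29 (0.148) and 0.34 (0.114) in synaptosomes. Without mouse 198 its difference at 18m was 0.50 (adjusted p = 0.0283). Mobp gave -0.07, -0.25 and 0.05, none of which passed (adjusted p from 0.286 to 0.882). The difference between the classes for SC_SYN over input_SYN was -0.21 ± 0.20 within mice, positive in 2 of 12. Whether the pellet effect itself differed between synaptosomes and homogenate was not tested, and all of these comparisons share libraries with those of synaptosomes against homogenate above.

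Whether age changed the transcripts differently in the 2 compartments was tested as an interaction over 24 libraries. No member passed with edgeR in the fit used for the other comparisons, which does not pair the libraries of a mouse. Between 3w and 5m 4 of 9 had an unadjusted p under 0.05 in SC (1324 of 16630 genes did) and 3 in input (1437 of 17860). Between 5m and 18m 5 did in SC (2855 of 16630 genes did) and 4 in input (3168 of 17860). DESeq2 called 3 members (Mbp, Mag and Cnp) in input between 5m and 18m, where it called 1109 of 17858 genes, and 0 members in the other 3 tests. Over all genes edgeR called 0.0301% (5 of 16630) in SC between 3w and 5m, 0.0% (0 of 16630; 2855 with an unadjusted p under 0.05, 272 by DESeq2) in SC between 5m and 18m, 0.0224% (4 of 17860) in input between 3w and 5m and 2.42% (432 of 17860, 180 upward and 252 downward, by library size 423 and 200) in input between 5m and 18m.

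The largest interaction between 3w and 5m was that of Mal in SC, which fell further in SYN than in TH by 0.62 (SE 0.16, adjusted p = 0.168). Between 5m and 18m in input, the difference of the age effect in SYN from that in TH was -0.49 for Mbp (SE 0.16, adjusted p = 0.087) and -0.48 for Mag (SE 0.14, adjusted p = 0.0679). With the mouse as a block both passed, at -0.50 for Mbp (adjusted p = 0.0198) and -0.48 for Mag (0.0295).

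Because Mbp and Mobp mRNA are known to be carried, the binding element and the carriers were looked at. The core of the A2 response element, CCAAGGAGC, which the carrier protein encoded by Hnrnpa2b1 recognises in Mbp mRNA, was searched on the sense strand of coding transcripts in GENCODE M21. It was found in 7 of 14 transcripts of Mbp and in none of the other 8 members, and 4.89% of 21901 coding genes held it in at least 1 transcript. Of 9 genes of mRNA carriers and their partners, Fyn, the kinase that lets Mbp translation start, fell between 3w and 5m in all 4 fractions, by 0.82 (SC_SYN), 0.46 (SC_TH), 0.77 (input_SYN) and 0.54 (input_TH). Qk, the RNA-binding protein quaking, fell in SC_TH (0.70) and input_TH (0.36), and Hnrnpa2b1 rose in input_TH (0.17). Between 5m and 18m in input_TH Syncrip fell (0.48) and Pcbp1 rose (0.19).

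Of the same 9, 3 were higher and 1 lower in SC_SYN than in SC_TH at 5m, where 32.1% of all genes were higher and 35.8% lower, with Qk at 1.01, Kif1b, a kinesin motor of Mbp mRNA, at 0.33, Fyn at 0.24 and Pcbp1 at -0.36. In input_SYN against input_TH, with 32.6% of all genes higher and 40.1% lower, 5 were higher and 2 lower, among them Qk (1.17), Hnrnpf (0.94), Kif1b (0.85), Hnrnpa2b1 (-0.64) and Syncrip (-0.56). In SC_TH against input_TH, with 29.9% and 32.2%, 7 were higher and 1 lower, led by Hnrnpf (1.39), Pcbp1 (1.36) and Hnrnpk (1.14), with Syncrip at -0.32. In SC_SYN against input_SYN, where 20.0% passed, 4 were higher, led by Hnrnpa2b1 (1.11), Hnrnpk (0.76) and Pcbp1 (0.61).

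The same comparisons were made at 5m for the 24 other myelin genes. In SC_SYN against SC_TH 17 were higher (32.1% of all genes) and 4 lower (35.8%), with Plekhb1 (1.92) and Cntn2 (1.44) at the top and Aspa (-1.04), Ermn (-0.81) and Tppp (-0.57) at the bottom. In input_SYN against input_TH 18 were higher (32.6% of all genes) and 2 lower (40.1%), among them Gjb1 (1.91) and Cntn2 (1.66), against Aspa (-3.02) and Ermn (-0.37). In SC_TH against input_TH, where 29.9% of all genes were higher and 32.2% lower, 16 were higher and 2 lower (Gamt 1.33, Olig2 1.09 and Gjb1 0.85 against Aspa -1.03 and Gal3st1 -0.64). In SC_SYN against input_SYN, where 20.0% of all genes passed, 4 were higher and 1 lower (Gamt 1.03, Plekhb1 0.99 and Sirt2 0.78 against Tspan2 -0.58). Of the 10 genes of precursors and newly formed oligodendrocytes, 9 were higher in SYN than in TH at 5m in ribosome-associated RNA. Astrocyte and microglia markers were higher there too, as given above, and their part in the values of the members was not tested.

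Over the 48 libraries, genes outside the list whose log2 CPM ran most like the mean of the 9 members included Enpp6 (Pearson r = 0.97), Gsn (0.97), Mcam (0.94), Gpr17 (0.93), Tspan2 (0.93), Apc (0.92), Lpar1 (0.92), Fyn (0.91) and Tnc (0.91), out of 10748 genes with a mean of at least 50 counts. Of the members themselves Mog lay closest to that mean (0.99), followed by Cldn11 (0.97), and Mobp (0.75), Cnp (0.80) and Mbp (0.82) lay farthest. The libraries share fractions, ages and mice, so these values describe a common course over the 12 groups. Within a fraction, after removal of the mean of each age, the members also deviated together in input_TH (median r over 36 pairs 0.56, from -0.17 to 0.92). There 34 of the 36 pairs lay above 0. In SC_TH (0.46, from -0.33 to 0.94) 26 pairs did. In SC_SYN (0.28, from -0.72 to 0.90) 21 of 36 pairs lay above 0, and in input_SYN (0.10, from -0.52 to 0.94) 19 did.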

How the data were processed

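The authors prepared directional libraries (NEBNext Ultra II) from rRNA-depleted RNA with UMI adaptors, made fastq files with bcl2fastq 2.20.0.422, aligned reads with TopHat2 2.1 to GRCm38 and assigned them to genes with featureCounts. The deposited values are raw counts, one for each of 48526 genes in each of 48 libraries. All columns were used (0 not used). Use of the UMIs to remove duplicates is not given in the sources used here, and strand was ignored in counting. Symbols, positions and exon lengths came from GENCODE M21, which holds 48144 of the identifiers (the rest make up 0.0596% of all reads).

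The test was edgeR's quasi-likelihood test (edgeR 4.0.16, limma 3.58.1, R 4.3.3) on TMM-normalized counts of genes kept by filterByExpr, with Benjamini-Hochberg adjustment over all genes tested. The threshold was 0.05. Ages were compared in a fit of the 12 libraries of a fraction, and fractions and interactions in fits of 24 libraries. TMM factors were taken anew in each fit, while the CPM use factors over all 48 libraries. All 9 members are named, with up to 3 of the largest changes past the threshold in each direction among 24 other myelin genes and 9 mRNA carriers, and the 10 nearest genes by correlation. Some genes that this rule picks are not reported here. Lists of oligodendrocyte precursors, neurons, astrocytes, microglia, endothelial cells, erythrocytes and nuclear RNA are given as counts. The members and lists were chosen with earlier results of these data known. The mice are separate animals, so n counts mice. Fold changes depend on scaling, and the depth of input_SYN, the lowest, limits scarce transcripts such as Opalin.

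A mouse gave 4 libraries, which pairs them by animal. After subtraction of group means, libraries of a mouse correlated with a median r between -0.05 and 0.19 over the 6 pairs of fractions (from -0.62 to 0.64 in single mice). Alternative settings were DESeq2 1.42.0, scaling by library size, no filter, only the groups compared, all 48 libraries in 1 fit, the mouse as a block, and each mouse left out in turn. The code was tested on simulated data. Promoter windows came from RefSeq, and motifs were searched in the 250 bases before a start.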

Additional observations from a re-analysis of the deposited data

Results flagged for a closer look

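With 4 mice in each of 12 groups, 9 of 108 groups of a member had 1 mouse whose gap to the nearest of the other 3, divided by the range of the group, exceeded Dixon's critical value. Chance flags about 1 in 20 such groups, or 5.4 here. In SC_SYN the Mag level had such a mouse at each age, with 1220 CPM in mouse 187 at 3w against 837 to 893 in the others (ratio 0.853), 428 CPM in mouse 191 at 5m against 349 to 351 (ratio 0.975) and 341 CPM in mouse 197 at 18m against 275 to 279 (ratio 0.948). Mouse 191 was also the highest for Cnp in SC_SYN at 5m (336 CPM against 230.4 to 244, ratio 0.872).

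In input_TH at 5m mouse 191 was the lowest for Mbp (983 CPM against 1156 to 1191, ratio 0.832) and for Mobp (311 CPM against 356 to 363, ratio 0.852), so the same animal stood low in input of homogenate and high in the pellet of synaptosomes for other members. Mouse 193 was the lowest for Cldn11 in input_TH at 5m (74.5 CPM against 78.1 to 78.5, ratio 0.910), although the whole group spans a narrow range. In input_SYN mouse 198 was the highest for Cnp at 18m (166 CPM against 139 to 143, ratio 0.855) and mouse 194 the lowest for Mal at 5m (214 CPM against 243 to 248, ratio 0.857). None of these mice was left out of the values in the report.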

How the results depend on the processing

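The falls of the 9 members between 3w and 5m kept their direction and their calls under DESeq2, library size, no filter, only the groups compared and all 48 libraries; with each mouse left out, only Opalin in input_SYN lost its call. The differences between SC_TH and input_TH kept the same number of calls under the alternatives run. Other counts moved. Between 5m and 18m the number of members called in SC_SYN was 0, against 1 by DESeq2 and 5 with all 48 libraries. In SC_TH it was 0, against 1 by DESeq2, without the filter and with only the groups compared, and 0 to 1 with each mouse left out (1 without mouse 191). In input_SYN it was 0, against 1 by DESeq2 and 1 without the filter, and in input_TH 4, against 1 with all 48 libraries and 2 to 4 with each mouse left out (2 without mouse 192, 194, 197 or 198). By library size 4 of 9 passed in SC_SYN against SC_TH at 5m (8 by TMM) and 4 at 18m (7 by TMM). In SC_SYN against input_SYN 1 passed at 3w, against 2 by DESeq2 and 2 with the replicate block (0 to 1 with each mouse left out; 0 without mouse 188, 189 or 190), and leaving out a mouse gave 1 to 3 at 5m (1 without mouse 191) and 0 to 3 at 18m (0 without mouse 197, 1 without mouse 195 or 196). In the input interaction between 5m and 18m 0 passed, against 3 by DESeq2, 1 without the filter and 2 with the mouse as replicate block. The block changed the calls of Mal, Mbp and Mag given in the report and no other call of a member. In these cases the cause was not tested.

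Some signs turned. By library size, in SC_SYN against SC_TH, Cnp was -0.26 at 3w (adjusted p = 0.0456) and -0.40 at 5m (0.00296), Mal -0.056 at 5m and -0.11 at 18m, and Mog -0.18, Opalin -0.28 and Cldn11 -0.21 at 18m; in input_SYN against input_TH, Cnp was -0.53 at 3w (1.77e-06) and -0.54 at 5m (2.03e-06), Mbp -0.54 at 5m (1.91e-05), Mog -0.038 at 5m and -0.22 at 18m, and Opalin -0.41 at 18m. Library size also turned Ugt8a between 5m and 18m in SC_SYN (0.038), Cldn11 in SC_SYN against input_SYN at 5m (0.0078), Opalin in SC_TH against input_TH at 3w (-0.0145) and the Cnp input interaction between 3w and 5m (-0.0103). DESeq2 turned Opalin between 5m and 18m in SC_SYN (-0.026) and in SC_SYN against input_SYN at 5m (-0.012), and Cnp in input_SYN against input_TH at 3w (-0.0256). The first of these was -0.0088 with all 48 libraries, -0.019 without the filter and -0.0092 with only the groups compared. Without the filter Cnp in input_SYN against input_TH at 3w was -0.007, Cldn11 in SC_SYN against input_SYN at 5m 0.073 and Mog in SC_TH against input_TH at 5m 0.0049.

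With each mouse left out, further estimates crossed 0. Between 5m and 18m the ranges were -0.23 to 0.0038 for Mbp, -0.47 to 0.16 for Opalin and -0.13 to 0.056 for Ugt8a in SC_SYN, -0.0073 to 0.19 for Mog and -0.17 to 0.024 for Ugt8a in SC_TH, -0.50 to 0.10 for Opalin and -0.0745 to 0.11 for Ugt8a in input_SYN, and -0.13 to 0.0065 for Ugt8a in input_TH. In SYN against TH they were -0.058 to 0.37 for Opalin in SC at 18m, -0.025 to 0.14 for Cnp in input at 3w, -0.0915 to 0.080 for Mobp in input at 5m and -0.13 to 0.29 for Opalin in input at 18m. In SC_SYN against input_SYN they were -0.18 to 0.0071 for Mobp and -0.20 to 0.019 for Cldn11 at 3w, -0.14 to 0.26 for Opalin, -0.12 to 0.13 for Cldn11 and -0.0735 to 0.11 for Ugt8a at 5m, and -0.038 to 0.21 for Mobp, -0.31 to 0.55 for Opalin and -0.12 to 0.18 for Ugt8a at 18m. In SC_TH against input_TH they were -0.20 to 0.13 for Opalin at 3w and -0.10 to 0.055 for Mog at 5m. In the interactions they were -0.24 to 0.084 for Mobp in SC and -0.022 to 0.14 for Cnp, -0.21 to 0.096 for Opalin and -0.19 to 0.049 for Cldn11 in input between 3w and 5m, and -0.0205 to 0.17 in SC and -0.0121 to 0.15 in input for Ugt8a between 5m and 18m.

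Counts over all genes depended more on the method. Between 3w and 5m, SC_SYN gave 1146, against 1767 by DESeq2 and 3464 with all 48 libraries; input_SYN 418, against 895 with all 48 libraries, 650 without the filter and 732 with only the groups compared; and input_TH 2136, against 761 with all 48 libraries. Between 5m and 18m, SC_SYN gave 2, against 322 by DESeq2, 1457 with all 48 libraries, 60 without the filter and 1 with only the groups compared; SC_TH 356, against 746 without the filter and 228 with only the groups compared; input_SYN 18, against 64 by DESeq2, 35 with all 48 libraries and 102 without the filter; and input_TH 2808, against 183 with all 48 libraries. The SC interaction gave 5 between 3w and 5m, against 55 by DESeq2, 22 without the filter and 10 with the replicate block, and 0 between 5m and 18m, against 272 by DESeq2, 7 by library size and 23 without the filter. The input interaction gave 4, against 32, 36, 7 by library size and 8 with the replicate block, and then 432, against 1109 by DESeq2 and 661 with the replicate block. With each mouse left out the ranges were 558 to 1264 in SC_SYN, 1653 to 4124 in SC_TH and 224 to 299 in input_SYN between 3w and 5m, 0 to 2 in SC_SYN, 84 to 774 in SC_TH, 7 to 19 in input_SYN and 1404 to 3389 in input_TH between 5m and 18m, 1558 to 1871, 1643 to 2166 and 968 to 1480 in SC_SYN against input_SYN at 3w, 5m and 18m, and 0 to 8, 0 to 1, 2 to 4 and 73 to 381 in the 4 interactions (SC, then input).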
